A study of Mus musculus with 6 samples.

Results

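CD8 T cells of mouse colon tumours were taken from single-cell RNA libraries as barcodes with at least 2 transcript counts (UMIs, unique molecular identifiers) of the CD3 genes Cd3e, Cd3d and Cd3g and at least 1 UMI of Cd8a or Cd8b1. Barcodes with a UMI of Cd4, Foxp3, Trdc, Cd79a or Epcam, or with more than 1 UMI of Lyz2, were left out, as were barcodes with fewer than 200 genes or with over 20% of their UMIs from mitochondrial genes. The rule found 510 barcodes among 50875 that passed the quality limits, of 64505 deposited. The cells were thus chosen on measured RNA, and the levels of the genes in the rule are given as description only.

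The libraries came from whole colon tumours collected at the clinical endpoint, dissociated to single cells, sorted for live cells by DAPI and loaded on the 10x Chromium 3′ v3 platform, with 3 libraries for each of 2 tumour models. In the Apc ICI model, male VilCreER Apcfl/fl mice received 1 injection of 70 µl of 100 µM 4-hydroxytamoxifen into the submucosa of the colon. In the AOM PN model, male VilcreER P53fl/fl Notch1Tg mice received 2 mg of tamoxifen by intraperitoneal injection and, starting 4 days later, the carcinogen azoxymethane (AOM) at 10 mg/kg each week for 6 weeks. Both models use a tamoxifen-inducible Cre driven by the villin promoter, which is active in gut epithelium, so T cells are not its intended target. The models differ in genotype, induction route and carcinogen at once, and these cannot be told apart. Whether replicates are separate animals is not stated, so p-values measure only the spread between these samples.

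CD8 T cells recognise peptides on MHC class I molecules and kill target cells with perforin and granzymes. Their coreceptor is either a heterodimer of the chains encoded by Cd8a and Cd8b1, carried by conventional CD8 T cells, or a Cd8a homodimer, carried by many of the intraepithelial lymphocytes that live in the gut lining. Natural-type intraepithelial lymphocytes are known for NK cell receptors and for the signalling adaptors Fcer1g and Tyrobp. Interleukin-17-producing T cells, many of them γδ T cells, are common in the colon.

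The 6 libraries held 59309093 to 60075436 UMIs each for Apc ICI, against 87107277 to 98583066 for AOM PN, of which 1.87% to 61.4% came from haemoglobin genes over both models. The CD8 rule kept 24, 19 and 12 barcodes in Apc ICI libraries 1, 2 and 3 and 261, 90 and 104 in AOM PN libraries 1, 2 and 3. Their median depth ran from 5165 to 9021 UMIs. No CD8-gated barcode was shared between libraries as a CD8-gated cell, and 10 of the 510 recurred as another kept barcode. The 15 pairs of libraries shared 4 to 34 kept barcodes each. A doublet caller marked 1, 0 and 0 of the cells in Apc ICI and 29, 4 and 17 in AOM PN. Over all kept barcodes it marked 4.00%, 5.87% and 4.17% in Apc ICI and 9.34%, 7.08% and 10.2% in AOM PN. Those shares were set in advance from the number of kept barcodes in each library. Levels of RNA are given as CPM, the UMIs of a gene in each 1000000 UMIs of the summed cells of a library. In epithelial barcodes the level of Trp53 was 135, 147 and 143 in the 3 libraries of Apc ICI and 48.7, 68.6 and 77 in AOM PN, Notch1 at 30.3, 39.8 and 30.7 and 38.6, 38.6 and 43.9, and Apc at 80.3, 75 and 71.9 and 55.2, 55.8 and 67.6. The reads come from transcript 3′ ends, so a deletion elsewhere in a transcript need not lower these values.

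CD8-gated cells were a larger fraction of the cells in every AOM PN library than in any Apc ICI library. They made up 0.480% (95% exact binomial interval 0.308 to 0.713), 0.259% (0.156 to 0.404) and 0.230% (0.119 to 0.401) of kept barcodes in the Apc ICI libraries. In the AOM PN libraries they made up 2.24% (1.98 to 2.52), 1.02% (0.818 to 1.25) and 0.814% (0.665 to 0.985). These intervals cover counting error only. Every AOM PN library lay above every Apc ICI library, and AOM PN 1 stood well above the other two. The means were 0.323% ± 0.137 (SD, n = 3) and 1.36% ± 0.769 (SD, n = 3), a ratio of 4.198 that fell to 2.83 without AOM PN 1. The exact two-sided permutation test gave p = 0.1, the smallest that 3 against 3 libraries allow, and 0.2 after Benjamini-Hochberg adjustment over the 2 shares examined. An edgeR quasi-likelihood test on the cell numbers gave a log2 ratio of 2.08 ± 0.57 (SE) and an adjusted p = 0.0389. That fit held only the numbers of CD8-gated and of all other kept barcodes, which are complements. Its estimate of spread thus had no independent rows to draw on. The denominator also held erythroid barcodes, 22.2% ± 15.9 of kept barcodes in Apc ICI and 5.79% ± 5.42 in AOM PN (SD, n = 3 each, exact permutation p = 0.2, two-sided). With haemoglobin-rich barcodes left out the ratio was 3.48. All CD3-positive barcodes were 3.96% ± 1.68 and 10.4% ± 3.46 (SD, n = 3 each). The direction held when Cd8a was required, with 0.183% ± 0.0425 and 1.17% ± 0.743 (SD, n = 3 each).

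Within the T cells the groups overlapped. CD8-gated cells were 8.14%, 8.72% and 7.59% of the CD3-positive barcodes in Apc ICI and 19.4%, 15.7% and 6.20% in AOM PN. AOM PN 1 and 2 lay above all Apc ICI libraries and AOM PN 3 below them. The means of 8.15% ± 0.560 and 13.8% ± 6.82 (SD, n = 3 each) did not differ beyond the spread between libraries (exact permutation p = 0.4, also after adjustment over both shares). Among the same CD3-positive barcodes, Foxp3-positive regulatory T cells were 8.25% ± 1.83 in Apc ICI and 20.04% ± 1.36 in AOM PN, and Trdc-positive γδ T cells 31.8% ± 2.32 and 16.9% ± 7.31 (SD, n = 3 each).

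**Figure D1:**
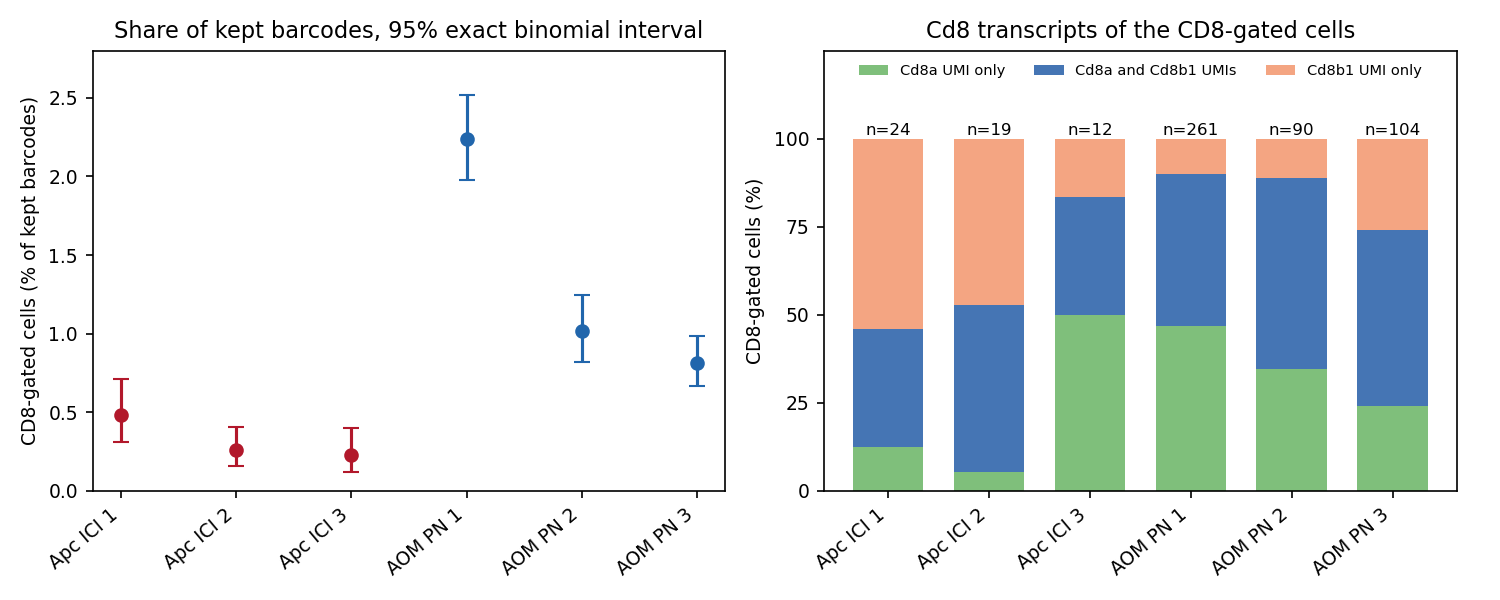
CD8-gated cells as a percentage of kept barcodes in each library with the 95% exact binomial interval (left), and the percentage of those cells with UMIs of Cd8a only, of both Cd8 genes or of Cd8b1 only (right, bars stacked to all cells, n above each). The AOM PN libraries lie at 0.814% to 2.24% and the Apc ICI libraries at 0.230% to 0.480%, and Cd8b1-only cells form the largest class in Apc ICI 1.

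The rule sits close to a continuum of cells with few Cd8 transcripts. In all, 21 of the 55 Apc ICI cells and 58 of the 455 AOM PN cells entered on a single Cd8 UMI. Just outside the rule, barcodes that met every other condition and had no Cd8 UMI numbered 105, 69 and 63 in Apc ICI and 384, 190 and 518 in AOM PN. Nkg7, a granule protein of killer lymphocytes, had a UMI in 73.7% to 95.02% of the CD8-gated cells and 30.4% to 47.6% of those just outside. Ccl5, a chemokine of effector and memory CD8 T cells, had a UMI in 20.8% to 83.9% and 17.1% to 33.9%.

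The pattern of Cd8 transcripts differed between libraries, and it is description only because both Cd8 genes are in the rule. Both Cd8 chains were seen in 8 of 24, 9 of 19 and 4 of 12 cells in the Apc ICI libraries and in 113 of 261, 49 of 90 and 52 of 104 in the AOM PN libraries. These shares overlapped between the models. Cd8b1 without Cd8a was seen in 13, 9 and 2 of the Apc ICI cells, 43.6% of them together, and in 26, 10 and 27 of the AOM PN cells, 13.8% together. Cd8a without Cd8b1 was seen in 3, 1 and 6 cells, or 18.2%, and in 122, 31 and 25 cells, or 39.1%. Apc ICI 1 and 2 were thus rich in cells that entered on Cd8b1 alone, 11 of 13 and 4 of 9 of them on a single UMI, whereas AOM PN 1 was rich in cells with Cd8a alone.

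Many Apc ICI cells carried the transcript of the cytokine interleukin-17A. Il17a had a UMI in 18 of 24, 8 of 19 and 4 of 12 cells of Apc ICI 1, 2 and 3, and in 5 of 261, 4 of 90 and 11 of 104 cells of AOM PN 1, 2 and 3. Over pooled cells this was 54.5% and 4.40%. Shares over pooled cells describe these cells only, since cells of 1 library are not replicates and the libraries differed. Among the Apc ICI cells with Cd8b1 alone it had a UMI in 13 of 13, 6 of 9 and 1 of 2. The share over the pooled cells was 83.3% in those cells, 50% in cells with Cd8a alone and 23.8% in cells with both chains. In AOM PN the corresponding shares were 7.94%, 6.18% and 1.87%. B cells, which should lack the transcript, had an Il17a UMI in 2.52% (mean of the Apc ICI libraries) and 1.45% (AOM PN). With each cell thinned to 1000 UMIs, which leaves out 1 CD8-gated cell, the shares were 32.7% ± 16.7 and 3.69% ± 3.51 (SD, n = 3 each), against 0.206% ± 0.356 and 0.112% ± 0.194 in B cells.

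Over the pooled Apc ICI cells, Ccl5 had the opposite arrangement to Il17a. It had a UMI in 12.5% of the Apc ICI cells with Cd8b1 alone, 70% of those with Cd8a alone and 66.7% of those with both chains, and in 58.7%, 73.6% and 88.8% in AOM PN. Only 7 Apc ICI cells, 12.7%, held UMIs of both Il17a and Ccl5. Tcrg-C1, a γ chain constant gene of the T cell receptor, followed Il17a, with a UMI in 70.8%, 50% and 9.52% of the Apc ICI cells in the same order. The defining γδ gene Trdc is absent by the rule and Sox13, another γδ marker, had no UMI in any CD8-gated cell. Barcodes of the same libraries gated on Trdc as γδ T cells carried Il17a at 4637, 7897, 4097, 4835, 5361 and 11550.4 CPM and Cd8b1 at 4.76, 0, 0, 3.94, 16.4 and 0.774 in the order Apc ICI 1 to 3, AOM PN 1 to 3. The CD8-gated cells themselves carried Il17a at 5315, 2638, 468, 72.5, 277 and 578, so Apc ICI 1 came close to the γδ T cells and the AOM PN libraries lay far below them. Calls between the models that are named below are also given with a Cd8a UMI required, an alternative chosen after the data were seen.

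**Figure D2:**
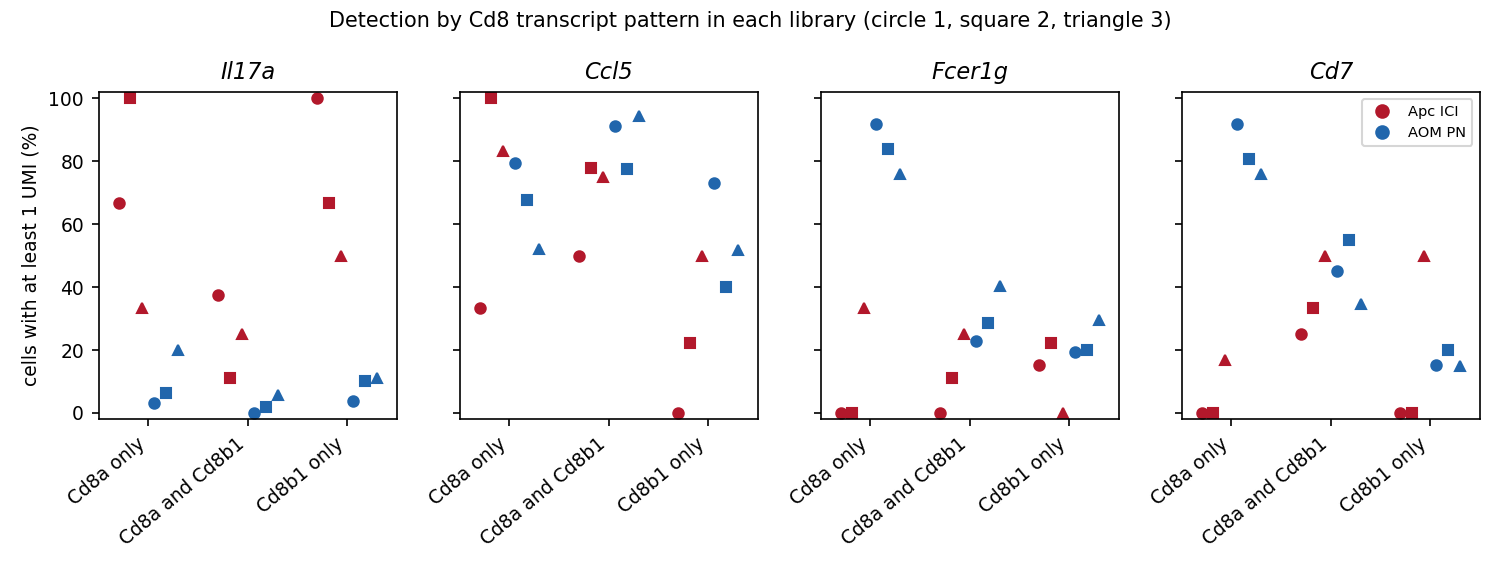
Percentage of cells with at least 1 UMI of Il17a, Ccl5, Fcer1g or Cd7 (y axis) by Cd8 transcript pattern (x axis), 1 point per library (circle, square and triangle for libraries 1, 2 and 3), coloured by tumour model. Apc ICI points rest on 1 to 13 cells each and spread widely. Among cells with Cd8b1 only, Il17a is seen in 13 of 13, 6 of 9 and 1 of 2 Apc ICI cells, and the AOM PN points for Fcer1g and Cd7 lie highest in cells with Cd8a only.

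The AOM PN cells differed among themselves along Cd8b1. Cells with a Cd8b1 UMI were compared with cells that entered on Cd8a alone within each of the 3 AOM PN libraries. They numbered 139, 59 and 79 against 122, 31 and 25. Of the Cd8b1-positive cells, 26, 10 and 27 had no Cd8a UMI, so both chains of the heterodimer were not seen in them. Of 5227 genes tested by edgeR with library as a block, 114 were higher in Cd8b1-positive cells (2.18% of those tested), Cd8b1 of the rule included, and 88 lower (1.68%), 3.86% in either direction, and 928 had an unadjusted p under 0.05. The Apc ICI libraries held only 3, 1 and 6 cells with Cd8a alone, and no such test was run there. A Cd8b1 zero can also be a missed transcript. Cells with Cd8a alone had median depths of 6397, 12969 and 7366 UMIs against 4455, 7517 and 5396 in cells with both chains, higher in all 3 libraries. Cells with Cd8b1 alone had median depths of 3392, 5533.5 and 4110.

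Cells with Cd8a alone carried the genes of natural-type intraepithelial lymphocytes. All 10 members tested of a list of 12 were lower in the Cd8b1-positive cells, with a median log2 difference of -1.89 against -0.00217 over all genes. Levels in each comparison below are normalised CPM, scaled to the effective library sizes of that comparison. Fcer1g, the Fc receptor γ chain adaptor, stood at 415, 407 and 423 in the Cd8b1-positive cells of AOM PN 1, 2 and 3 and 2498, 1429.9 and 2033 in their Cd8b1-zero cells (log2 difference -2.23 ± 0.16 SE, adjusted p = 0.000175). Tyrobp, a related adaptor, stood at 306, 233 and 338 against 1373, 533 and 818 in the same order (log2 difference -1.57 ± 0.19 SE, adjusted p = 0.0029). Every Cd8b1-zero value of both genes lay above every Cd8b1-positive value. Cd7, a surface glycoprotein of early T and NK cells, stood at 407, 351 and 160.2 against 2207, 1702 and 1045 (log2 difference -2.46 ± 0.13 SE, adjusted p = 5.63e-05). Ikzf2, which encodes the transcription factor Helios, stood at 296, 353 and 205 against 1051, 1209.9 and 1237 (log2 difference -2.05 ± 0.17 SE, adjusted p = 0.000397). The groups were again separate in all 3 libraries. Cd160, a receptor of gut intraepithelial cells, stood at 128, 165 and 66.7 against 418, 438 and 232 (log2 difference -1.62 ± 0.15 SE, adjusted p = 0.000746).

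The share of cells with an Fcer1g UMI was 88.2% with Cd8a alone and 28.5% with both chains, beside 23.1% in B cells of the same libraries. In CPM of total UMIs, Fcer1g stood at 455, 427 and 440.5 in cells with both chains and at 236, 251 and 463 in B cells of AOM PN 1, 2 and 3, higher in cells with both chains in 2 of the 3 libraries. Cd7 had a UMI in 87.6% and 44.9% of these cells and in 0.68% of B cells.

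NK receptors of the Ly49 family moved the same way. Klra7 stood at 34.7, 11.3 and 6.67 in the Cd8b1-positive cells of AOM PN 1, 2 and 3 and 213, 258 and 149 in their Cd8b1-zero cells (log2 difference -3.40 ± 0.32 SE, adjusted p = 0.000746), and Klra1 at 10.6, 2.26 and 0 against 90.8, 67 and 61.2 (log2 difference -3.83 ± 0.48 SE, adjusted p = 0.00295). Klrb1a, an NKR-P1 receptor, was almost confined to the Cd8b1-zero sums at 1.51, 2.26 and 2.22 against 53.7, 38.3 and 30.6 (log2 difference -4.30 ± 0.50 SE, adjusted p = 0.00215). In all, 4 of 10 tested NK receptors were lower in Cd8b1-positive cells and none higher. The Ly49 genes are close copies of one another, and reads may be split among them. Xcl1, the chemokine that attracts cross-presenting dendritic cells, stood at 445, 260.3 and 365 against 1639, 1757 and 1443 (log2 difference -2.20 ± 0.18 SE, adjusted p = 0.000335). Of 14 tissue residency genes tested, 3 were lower and 3 higher in Cd8b1-positive cells. The lower ones were the integrins Itgae (-1.26, adjusted p = 0.00345) and Itga1 (-1.39, adjusted p = 0.00971) and Ldlrad4 (-1.13, adjusted p = 0.00758). The higher ones were the activation and retention marker Cd69 (0.98, adjusted p = 0.00968), the integrin Itga4 (1.10, adjusted p = 0.014) and the transcription factor Bhlhe40 (0.72, adjusted p = 0.0232). The cathepsin Ctsw was lower (-1.05, adjusted p = 0.00476). The γ chain constant genes Tcrg-C1, Tcrg-C2 and Tcrg-C4 were lower in the Cd8b1-positive cells, with a log2 difference of -1.66, adjusted p = 0.00654 for Tcrg-C1, and Trac, Trbc1 and Trbc2 did not pass the test.

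Some genes known from conventional effector and memory CD8 T cells were higher in the Cd8b1-positive cells. Ccl5 stood at 7091, 4041 and 6288 in the Cd8b1-positive cells of AOM PN 1, 2 and 3 and 1913, 662 and 1023 in their Cd8b1-zero cells (log2 difference 2.37 ± 0.16 SE, adjusted p = 0.000145). Gzmk, a granzyme of memory-type CD8 T cells, stood at 229, 77 and 136 against 1.19, 0 and 13.1 (log2 difference 5.81 ± 0.52 SE, adjusted p = 0.000565). Both genes were separated by a wide margin in each library. Eomes, a transcription factor of effector and memory CD8 T cells, stood at 70.9, 52.1 and 73.4 against 3.58, 0 and 0 (log2 difference 4.90 ± 0.53 SE, adjusted p = 0.00141). Prf1, which encodes perforin, stood at 70.9, 156 and 51.2 against 5.97, 14.3 and 8.74 (log2 difference 3.34 ± 0.31 SE, adjusted p = 0.000731). Gzma was higher in every library but differed among them, at 1053, 2751 and 77.9 against 265, 548 and 0 (log2 difference 2.29 ± 0.26 SE, adjusted p = 0.00211). Its call was lost when every cell was thinned to 1000 UMIs, as were most of the 202 calls of the split. Other granule genes did not follow. Nkg7 stood at 2243, 1225 and 1117 against 1396, 1167 and 831 (log2 difference 0.40 ± 0.14 SE, adjusted p = 0.183) and Gzmb, granzyme B, at 778, 632 and 492 against 699.9, 380.2 and 761 (log2 difference 0.09 ± 0.22 SE, adjusted p = 0.88). Of 14 cytotoxic genes tested, 3 were higher in Cd8b1-positive cells and 1, Ctsw, was lower.

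Genes of costimulation and circulation were also higher in Cd8b1-positive cells. The list of costimulatory genes had 8 of 13 tested members higher and none lower, with a median log2 difference of 1.27. Cd28, the main costimulatory receptor, stood at 339, 317 and 194 in the Cd8b1-positive cells of AOM PN 1, 2 and 3 and 28.7, 16.7 and 30.6 in their Cd8b1-zero cells (log2 difference 3.56 ± 0.24 SE, adjusted p = 0.000137). Cd5, an inhibitory coreceptor of αβ T cells, stood at 107, 72.4 and 48.9 against 5.97, 0 and 4.37 (log2 difference 4.38 ± 0.45 SE, adjusted p = 0.00118). The groups were far apart for both genes. Among 12 naive and memory genes 5 were higher and none lower, including Il7r, the interleukin-7 receptor, at 297, 604 and 625 against 83.6, 187 and 284 (log2 difference 1.56 ± 0.17 SE, adjusted p = 0.00141) and Ly6c2, a memory marker, at 87.5, 206 and 205 against 4.78, 21.5 and 4.37 (log2 difference 3.87 ± 0.31 SE, adjusted p = 0.000321). S1pr1, the receptor for egress from tissue, stood at 40.7, 125 and 109 against 2.39, 9.56 and 0 (log2 difference 4.15 ± 0.43 SE, adjusted p = 0.0012). Among 16 checkpoint genes 3 were higher (Pdcd1, Ctla4 and Nr4a1) and 3 lower (Cd160, Cd244 and Cd200r1). Pdcd1, which encodes PD-1, stood at 278, 181 and 105 against 57.3, 43 and 65.6 (log2 difference 1.89 ± 0.27 SE, adjusted p = 0.0054).

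With a Cd8a UMI required of all cells, 96 genes were higher (1.96%) and 79 lower (1.61%) of 4893 tested, and 90 and 67 of them were the same genes. Leaving out 1 AOM PN library left 173 to 226 calls. Among the genes with values above, every call held without each library. Ctla4 was not called without AOM PN 1, and Nr4a1 was not called without AOM PN 2 or without AOM PN 3. Mast cell transcripts, high in these tumours, also moved with the split, and their part in it was not tested. Cpa3, a mast cell protease, stood at 258, 15.8 and 1079 against 345, 45.4 and 2387 (adjusted p = 0.0363), and Kit is a mast cell gene as well as a member of the intraepithelial list. In the comparison with NK-gated barcodes below, which held mast cell proteases in AOM PN, 11 list members were tested. Tyrobp and Kit were lower in the CD8-gated cells and Ikzf2 higher. Fcer1g stood at 1443, 821 and 876 normalised CPM in the CD8-gated cells of AOM PN 1, 2 and 3. In the NK-gated cells it stood at 2963, 2315 and 3242, and it did not pass (edgeR adjusted p = 0.156).

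Promoters of 4 genes on the opposite sides of this split are shown because the Runx factors, which silence Cd4 and act on Cd8 genes in CD8 T cells, bind the core motif TGTGGT. Its reverse complement reads ACCACA. The sequences are the 250 bases before the start site in the RefSeq annotation of GRCm38.p6, which is the mm10 assembly, written 5′ to 3′ on the gene's strand, with a match to either motif strand in capitals. Fcer1g lies at chr1:171234350-171234599 and Xcl1 at chr1:164935523-164935772, both on the minus strand, and both were lower in Cd8b1-positive cells. Gzmk lies at chr13:113180966-113181215 on the minus strand and Prf1 at chr10:61297586-61297835 on the plus strand, and both were higher in them.
Fcer1g: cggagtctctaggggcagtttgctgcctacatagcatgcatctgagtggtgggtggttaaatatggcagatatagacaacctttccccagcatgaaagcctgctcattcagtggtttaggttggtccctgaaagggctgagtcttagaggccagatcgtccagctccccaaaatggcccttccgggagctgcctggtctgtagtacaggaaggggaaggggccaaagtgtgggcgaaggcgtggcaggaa
Xcl1: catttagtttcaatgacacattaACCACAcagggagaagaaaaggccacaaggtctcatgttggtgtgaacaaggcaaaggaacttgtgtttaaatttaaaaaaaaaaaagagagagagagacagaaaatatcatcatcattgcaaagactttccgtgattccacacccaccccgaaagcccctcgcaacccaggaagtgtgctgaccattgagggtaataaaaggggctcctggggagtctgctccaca
Gzmk: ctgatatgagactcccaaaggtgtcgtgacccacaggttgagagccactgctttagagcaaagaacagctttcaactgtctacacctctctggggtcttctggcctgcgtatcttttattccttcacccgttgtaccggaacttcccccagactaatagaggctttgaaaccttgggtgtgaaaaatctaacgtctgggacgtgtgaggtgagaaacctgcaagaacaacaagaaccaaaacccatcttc
Prf1: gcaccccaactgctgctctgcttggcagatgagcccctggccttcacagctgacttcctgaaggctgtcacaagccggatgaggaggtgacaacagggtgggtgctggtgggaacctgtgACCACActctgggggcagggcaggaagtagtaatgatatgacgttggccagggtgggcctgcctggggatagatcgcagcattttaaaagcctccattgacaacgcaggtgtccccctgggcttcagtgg
The Xcl1 and Prf1 windows each hold 1 match and the Fcer1g and Gzmk windows none, beside 14.0% of 32851 promoter windows of the same length with at least 1. The motif was thus present in 1 gene on each side of the split.

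**Figure D3:**
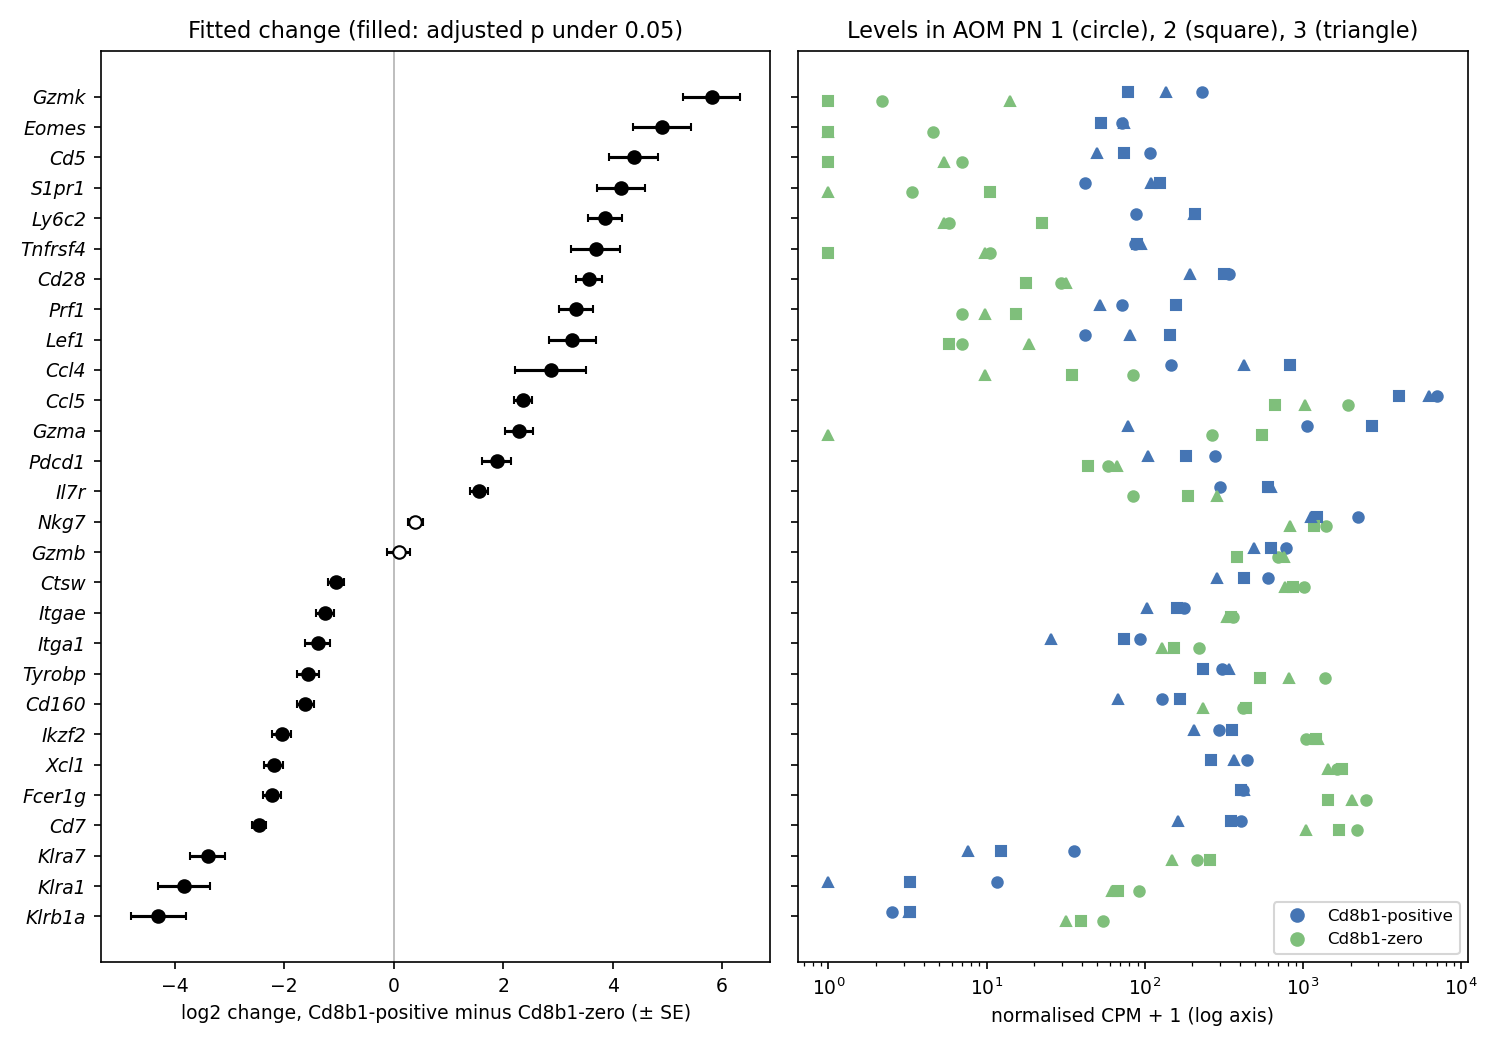
Fitted log2 change between Cd8b1-positive and Cd8b1-zero cells with its SE (left, filled where the adjusted p was under 0.05) and normalised CPM + 1 on a log axis in both sums of each AOM PN library (right) for 28 genes. Gzmk, Eomes, Cd5 and Ccl5 lie to the right of 0, Nkg7 and Gzmb near 0 with open symbols, and Fcer1g, Cd7, Klra7 and Klrb1a to the left.

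The CD8-gated cells of the 2 tumour models were then compared over the 6 summed libraries. Of 5219 genes tested by edgeR, 61 were higher in AOM PN (1.17% of those tested) and 80 lower (1.53%). The groups of 3 did not overlap for 13.5% of tested genes in the higher direction and 10.1% in the lower. The comparison is uneven in depth, because the Apc ICI sums hold 210914, 123562 and 74743 UMIs and the AOM PN sums 1559041, 908727 and 717826. It is also a comparison of different mixtures, as shown above for Cd8b1 and Il17a. When a Cd8a UMI was required, 17 genes were higher (0.421% of 4041 tested) and 13 lower (0.322%), of which 15 and 8 were among the first calls. The 61 and 52 first calls that could be tested again all kept their sign. Leaving out 1 library left 4 to 41 higher and 3 to 44 lower calls, the fewest without Apc ICI 1 (4 and 3). Every gene named below as called lost its call without at least 1 library, with the exceptions of Ikzf2 and Igfbp7, which kept it in all 6 fits.

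Genes of natural-type intraepithelial lymphocytes were higher in the AOM PN cells. Of 9 tested list members 6 rose and none fell, with a median log2 difference of 2.42 against 0.02 over all genes. Of the 6, 2 (Ikzf2 and Cd7) were also called with Cd8a required. Ikzf2 stood at 181, 133 and 216 in Apc ICI and at 743, 792 and 579 in AOM PN (log2 difference 2.01 ± 0.24 SE, adjusted p = 0.00584). No AOM PN value overlapped with an Apc ICI value, and the adjusted p was 0.0136 with Cd8a required. Cd7 stood at 34.3, 41.5 and 324 against 1463, 1037 and 479.8 in the same order (log2 difference 3.18 ± 0.70 SE, adjusted p = 0.0441), with Apc ICI 3 near AOM PN 3 and the other Apc ICI libraries far below. Xcl1 stood at 0, 0 and 121 against 1152, 1017 and 762 (log2 difference 5.26 ± 0.82 SE, adjusted p = 0.016). It had no UMI in Apc ICI 1 and 2, and its adjusted p with Cd8a required was 0.0202. Fcer1g stood at 14.7, 24.9 and 378 against 1635, 931 and 1011 (log2 difference 3.44 ± 0.80 SE, adjusted p = 0.0499) and Cd160 at 14.7, 0 and 108 against 301, 306 and 128 (log2 difference 3.08 ± 0.71 SE, adjusted p = 0.0491). Neither passed with Cd8a required (adjusted p = 0.134 and 0.126). Klra7 had no UMI in the 3 Apc ICI sums and 139, 135 and 57.1 CPM in AOM PN, at least 15.9-fold higher against a floor of 3 UMIs over the Apc ICI group (adjusted p = 0.0223, and 0.0828 with Cd8a required). The remaining member, Kit, is also the defining receptor of mast cells (adjusted p = 0.06 with Cd8a required). Fcer1g also stood higher in the NK-gated barcodes of AOM PN, which held mast cell proteases, than in the CD8-gated cells. The part of mast cell RNA in the call of Fcer1g was not tested. Among these calls, those of Cd7 and Cd160 were lost without library 1 or 2 of either model, that of Xcl1 without library 1 of either model or Apc ICI 2, that of Klra7 on leaving out any library except AOM PN 3, and that of Fcer1g on leaving out any library except Apc ICI 3.

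Of 14 cytotoxic genes tested, 2 were higher in AOM PN and none lower. With Cd8a required 1 was higher, and the list's median log2 difference was -0.15 against 0.07 without that requirement. Ctsw stood at 265, 241 and 202 in Apc ICI and at 861, 657 and 467 in AOM PN (log2 difference 1.47 ± 0.26 SE, adjusted p = 0.0219), and the groups were separate. Serpinb9, an inhibitor of granzyme B, stood at 53.9, 66.4 and 148 against 234, 229.7 and 225 (log2 difference 1.54 ± 0.31 SE, adjusted p = 0.0345). Ctsw passed with Cd8a required and Serpinb9 did not (adjusted p = 0.0307 and 0.348). The call of Ctsw was lost on leaving out any library except AOM PN 3 and that of Serpinb9 without library 1 or 2 of either model. The main killing genes overlapped between the models. Gzmb stood at 162, 705 and 1119 against 761, 524 and 609 (log2 difference -0.01 ± 0.49 SE, adjusted p = 0.997) and Prf1 at 24.5, 58.1 and 121 against 35.9, 89.7 and 38.6 (log2 difference -0.04 ± 0.59 SE, adjusted p = 0.988). Gzma covered its whole range within Apc ICI alone, at 103, 0 and 5123 against 636, 1727 and 54 (log2 difference -1.07 ± 1.44 SE, adjusted p = 0.773). The chemokine Ccl5 stood at 1524, 6637 and 10557 against 4355, 2467 and 4723 (log2 difference -0.69 ± 0.51 SE, adjusted p = 0.547), lowest in Apc ICI 1 and highest in Apc ICI 3. Nkg7 stood at 769, 1701 and 1699 against 1835, 1231 and 1068, with a log2 difference of 0.00 and an adjusted p = 1.

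Maf, Zbtb16, Il17re and Il1r1 were among the genes called lower in AOM PN. All 4 are known from interleukin-17-producing T cells among others, and they form no fixed list here. Maf, a transcription factor of helper T cells, stood at 564, 589 and 324 in Apc ICI and at 31.8, 83.7 and 86.4 in AOM PN (log2 difference -2.93 ± 0.38 SE, adjusted p = 0.00771). The groups were separate, the adjusted p was 0.00378 with Cd8a required, and the call was lost only without Apc ICI 1. Zbtb16, the innate-like T cell factor PLZF, stood at 108, 58.1 and 40.4 against 4.15, 4.78 and 15.4 (log2 difference -3.42 ± 0.56 SE, adjusted p = 0.0176). The receptor genes Il17re and Il1r1 stood at 93.1, 41.5 and 53.9 against 1.38, 3.59 and 13.9 (log2 difference -3.72 ± 0.69 SE, adjusted p = 0.0239) and at 157, 49.8 and 67.4 against 2.07, 17.9 and 24.7 (log2 difference -3.01 ± 0.70 SE, adjusted p = 0.0499). These 3 genes were too low to be tested with Cd8a required. The call of Il1r1 was lost whichever library was left out, that of Il17re on leaving out any except AOM PN 3, and that of Zbtb16 without library 1 or 2 of either model. Il17a itself did not pass, at 5494, 2704 and 472 against 78.1, 301 and 640.3 (log2 difference -3.11 ± 0.81 SE, adjusted p = 0.0779). Apc ICI 1 and 2 lay far above every AOM PN library, and Apc ICI 3 lay within their range. Ramp1, a receptor component for the neuropeptide CGRP, stood at 848, 398 and 162 against 18.7, 27.5 and 50.9 (log2 difference -4.01 ± 0.53 SE, adjusted p = 0.00828), a call that passed with Cd8a required (adjusted p = 0.00674) and was lost only without AOM PN 1. Igfbp7, a secreted binding protein, stood at 83.3, 66.4 and 202 against 0.691, 3.59 and 0 (log2 difference -6.03 ± 0.69 SE, adjusted p = 0.00459), and was too low to be tested with Cd8a required. Among the lymphocyte transcription factors Ikzf2 rose, and Zeb2, Maf, Nfil3 and Zbtb16 fell. Zeb2 and Nfil3 did not pass with Cd8a required (adjusted p = 0.302 and 0.503). Zeb2 also lost its call without library 1 of either model, and Nfil3 without library 1 or 2 of either. The summed γδ markers ranged from 489 to 730.3 CPM over Apc ICI against 273 to 343 over AOM PN, with 6 of 8 markers detected, and their part in these differences was not tested.

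Some checkpoint and activation genes were lower in AOM PN as well. Of 15 checkpoint genes tested 3 fell and 1, Cd160, rose, with a median log2 difference of -0.89. Pdcd1 stood at 338, 290.4 and 297 in Apc ICI and at 160.3, 117 and 95.7 in AOM PN (log2 difference -1.30 ± 0.24 SE, adjusted p = 0.0223). Ctla4 stood at 1093, 630.5 and 499 against 155, 205 and 258 (log2 difference -1.88 ± 0.31 SE, adjusted p = 0.0176) and Havcr2, which encodes TIM-3, at 353, 99.5 and 67.4 against 24.9, 23.9 and 61.7 (log2 difference -2.52 ± 0.54 SE, adjusted p = 0.0408). The Apc ICI values lay above the AOM PN values for all 3 genes, most narrowly for Havcr2, and none of the 3 passed with Cd8a required (adjusted p = 0.0828, 0.0517 and 0.269). The call of Pdcd1 was lost without Apc ICI 1, 2 or 3 or AOM PN 2, that of Ctla4 without library 1 or 2 of either model, and that of Havcr2 on leaving out any library except AOM PN 3. Icos, the costimulator, stood at 1220.4, 846 and 499 against 155, 269 and 285 (log2 difference -1.88 ± 0.33 SE, adjusted p = 0.0218) and kept its call with Cd8a required (adjusted p = 0.0475), but not without the same 4 libraries as Ctla4. Other exhaustion genes were not called, among them Lag3 (-0.90, adjusted p = 0.233) and the exhaustion factor Tox (0.10, adjusted p = 0.907). Of 14 tissue residency genes tested, 2 fell and 2 rose, with a median log2 difference of 0.03. Cxcr6 (-1.79, adjusted p = 0.035) and Rgs1 (-1.12, adjusted p = 0.049) fell, and the integrin gene Itga1 (2.75, adjusted p = 0.0431) and Cdh1 (3.90, adjusted p = 0.0413), which encodes E-cadherin, rose. The level of Cdh1 in the CD8-gated cells of AOM PN was under 0.25 times that in epithelial barcodes of that model. None of the 4 passed with Cd8a required (adjusted p = 0.197, 0.767, 0.268 and 0.197). Cxcr6 and Rgs1 lost their calls whichever library was left out, Itga1 on leaving out any library except AOM PN 3, and Cdh1 in each of the 3 such fits that could test it, those without Apc ICI 1, 2 or 3. Tigit was not tested, as its counts were low.

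Other gene groups gave few or no calls. Among 11 cell cycle genes Stmn1 and Mcm3 rose, with a list median of 1.20, and Stmn1 stood at 14.7, 24.9 and 27 in Apc ICI and at 219, 124 and 273 in AOM PN (log2 difference 3.32 ± 0.48 SE, adjusted p = 0.0125). Neither passed with Cd8a required (adjusted p = 0.0743 and 0.184). The call of Stmn1 was lost without Apc ICI 1 or 2 and that of Mcm3 whichever library was left out. The proliferation marker Mki67 did not pass (1.66, adjusted p = 0.292). None of 13 naive and memory genes, 14 cytokine receptors, 16 interferon response genes, 19 immediate early genes, 10 heat shock genes, 11 glycolysis and hypoxia genes or 11 MHC class I genes was called by edgeR at the adjusted threshold. At an unadjusted p under 0.05 these lists held 3, 4, 3, 6, 5, 2 and 3 genes in that order, and DESeq2 called 0, 0, 0, 1, 2, 1 and 1. Ifng, the main type 1 cytokine, stood at 127, 99.5 and 94.4 against 56, 63.4 and 47.8 (log2 difference -0.98 ± 0.26 SE, adjusted p = 0.0779) and was not called. Car2, a carbonic anhydrase, rose from 4.9, 0 and 27 to 227, 261 and 145 (log2 difference 4.76 ± 0.59 SE, adjusted p = 0.0062), and passed with Cd8a required (adjusted p = 0.0202). Its call was lost without Apc ICI 1.

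Some genes called higher in AOM PN were more abundant in other cells of those tumours. For 15 of the 61 higher and 2 of the 80 lower calls, the level in the CD8-gated cells was under 0.25 times that in another gated class of the same model. The mast cell protease Mcpt1 stood at 0, 16.6 and 53.9 in Apc ICI and at 2938, 343 and 11574 in AOM PN (log2 difference 8.24 ± 1.39 SE, adjusted p = 0.0194), a call that was lost on leaving out any Apc ICI library or AOM PN 1, as were those of Kit, Cd74 and Ccl2. With Cd8a required the adjusted p was 0.0307 for Mcpt1, 0.0202 for Cd74 and 0.0931 for Ccl2. The sum of 7 mast cell markers, all detected, ranged from 4.9 to 94.4 CPM over Apc ICI against 628 to 34329.5 over AOM PN, with mast cells 0.161% ± 0.0367 and 11.05% ± 8.996 (SD, n = 3 each) of kept barcodes. B cell markers ranged from 16.6 to 39.2 CPM over Apc ICI against 100.3 to 195 over AOM PN (4 of 5 detected, Cd79a at 0 by the rule), dendritic cell markers from 118 to 149 CPM over Apc ICI against 408 to 1716 over AOM PN (6 of 7, Xcr1 at 0), and NK cell markers from 124 to 364 CPM over Apc ICI against 481 to 1029 over AOM PN (6 of 6). Erythroid markers ranged from 3609 to 61921 CPM over Apc ICI against 6963 to 45687 over AOM PN (6 of 6), and epithelial markers from 49.8 to 68.6 CPM over Apc ICI against 4.63 to 30.4 over AOM PN (3 of 5, Epcam and Krt20 at 0). The chemokine Ccl2, the mast cell proteases, Kit, Cdh1 and Cd74 were among the 15, and the part of free RNA and doublets in each was not tested. Cdh1 was highest in the epithelial class. Cd74 was highest in B cells among the gated classes compared, which held no dendritic cell class, and it also belongs to the dendritic cell markers above. With called doublets removed, 29 genes were higher and 48 lower.

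**Figure D4:**
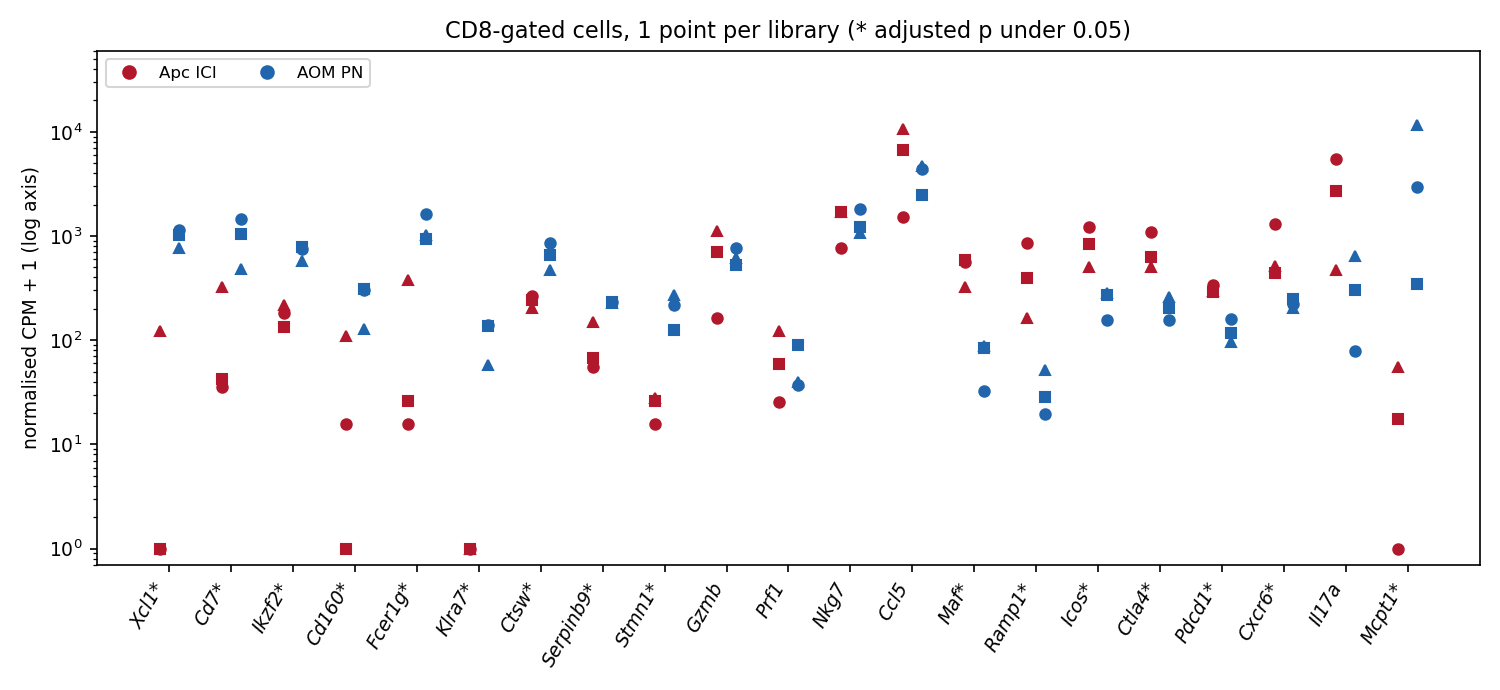
Normalised CPM + 1 (log axis) of the summed CD8-gated cells for 21 genes, 1 point per library, coloured by tumour model, with an asterisk where the adjusted p was under 0.05. Ikzf2 and Ctsw lie higher and Maf, Icos and Pdcd1 lower in all AOM PN libraries, whereas Gzmb, Prf1 and Ccl5 overlap between the models.

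Compared with CD4-gated T cells of the same libraries, the CD8-gated cells were higher in some genes of killer lymphocytes. CD4-gated cells (649 barcodes) met the CD3 rule with a Cd4 UMI and no UMI of the Cd8 genes, Foxp3 or Trdc. Of 5046 genes tested by edgeR with library as a block, 56 were higher in CD8-gated cells (1.11%) and 78 lower (1.55%), the Cd8 and Cd4 genes of the rule included. With Cd8a required 209 were higher (4.41% of 4735) and 261 lower (5.51%), and 50 and 71 of them were among the first calls. Values are given in the order Apc ICI 1, 2 and 3, AOM PN 1, 2 and 3.

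Granule and chemokine genes were higher in CD8-gated cells. Nkg7 stood at 780, 1737, 1746, 1855, 1249.5 and 1064 in the CD8-gated cells and 233, 38.5, 394, 269, 229 and 159 in the CD4-gated cells (log2 difference 2.74 ± 0.34 SE, adjusted p = 0.00118). Prf1 stood at 24.8, 59.3, 125, 36.3, 91.1 and 38.5 in the CD8-gated cells and 4.23, 4.81, 0, 8.05, 3.29 and 1.44 in the CD4-gated cells (log2 difference 3.52 ± 0.40 SE, adjusted p = 0.000732). Both genes were higher in the CD8-gated cells of all 6 libraries. Ctsw stood at 268, 246, 208, 870.1, 667 and 466 in the CD8-gated cells and 80.4, 86.6, 119.8, 141, 163 and 104 in the CD4-gated cells (log2 difference 1.95 ± 0.21 SE, adjusted p = 0.000498). Ccl5 stood at 1545, 6778, 10847, 4402, 2504 and 4708 in the CD8-gated cells and 29.6, 111, 163, 761, 1473 and 506 in the CD4-gated cells (log2 difference 3.83 ± 0.68 SE, adjusted p = 0.0108), a call that did not hold without AOM PN 3. CD4-gated cells of AOM PN held more Ccl5 than those of Apc ICI in each library. Of 14 cytotoxic genes tested 4 were higher and none lower. Gzmb (0.88, adjusted p = 0.211) and Gzmk (2.05, adjusted p = 0.0624) did not pass.

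NK receptor and γ chain genes were also higher in CD8-gated than in CD4-gated cells. Of 5 NK receptors tested 4 were higher, namely Klrd1 (2.70, adjusted p = 0.00382), Klrc1 (2.22, adjusted p = 0.000941), Klrc2 (2.31, adjusted p = 0.00203) and Klrk1 (2.23, adjusted p = 0.00195), which form or accompany the CD94/NKG2 receptors. Cd7 stood at 34.8, 42.4, 332, 1479, 1053 and 478 in the CD8-gated cells and 16.9, 43.3, 8.55, 21.5, 28 and 15.1 in the CD4-gated cells (log2 difference 4.66 ± 0.65 SE, adjusted p = 0.0025), higher in every library but Apc ICI 2. Ly6c2 stood at 169, 195, 97, 43.3, 121 and 143 in the CD8-gated cells and 33.8, 19.2, 17.1, 4.47, 13.2 and 13.7 in the CD4-gated cells (log2 difference 3.08 ± 0.21 SE, adjusted p = 5.35e-05), above the CD4-gated value in every library. Among transcription factors Eomes (2.48, adjusted p = 0.0198) and Runx3 (0.90, adjusted p = 0.0414), a regulator of the CD8 lineage, were higher. Runx3 lost its call without each of Apc ICI 2, AOM PN 1, AOM PN 2 and AOM PN 3. The γ chain genes Tcrg-C2 (2.55, adjusted p = 0.000732) and Tcrg-C4 (4.06, adjusted p = 0.000639) were higher, and Trac, Trbc1 and Trbc2 did not pass.

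Costimulatory genes were lower in CD8-gated cells, with 6 of 14 tested members lower and none higher. Tnfrsf4, which encodes OX40, stood at 0, 153, 0, 45.4, 47.4 and 67.7 in the CD8-gated cells and 529, 784, 633, 681, 624 and 739.5 in the CD4-gated cells (log2 difference -3.79 ± 0.40 SE, adjusted p = 0.000498). Cd5 stood at 19.9, 67.8, 41.6, 53.1, 38.9 and 35.4 in the CD8-gated cells and 237, 255, 154, 185, 158 and 189 in the CD4-gated cells (log2 difference -2.17 ± 0.20 SE, adjusted p = 0.000241). Both genes were lower in all 6 libraries. The chemokine receptor Ccr6 (-4.42, adjusted p = 0.000498) and the lymph node homing receptor Ccr7 (-1.29, adjusted p = 0.0162) were lower, the latter call being lost without AOM PN 1 and without AOM PN 2. Hif1a, the hypoxia factor, stood at 333, 263, 222, 167, 250.2 and 239.9 in the CD8-gated cells and 474, 443, 556, 766, 749 and 759 in the CD4-gated cells (log2 difference -1.38 ± 0.21 SE, adjusted p = 0.00457). None of 18 immediate early, 10 heat shock, 12 cell cycle, 11 glycolysis and hypoxia or 11 MHC class I genes was called by edgeR, with 3, 1, 2, 6 and 0 at an unadjusted p under 0.05 in that order.

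**Figure D5:**
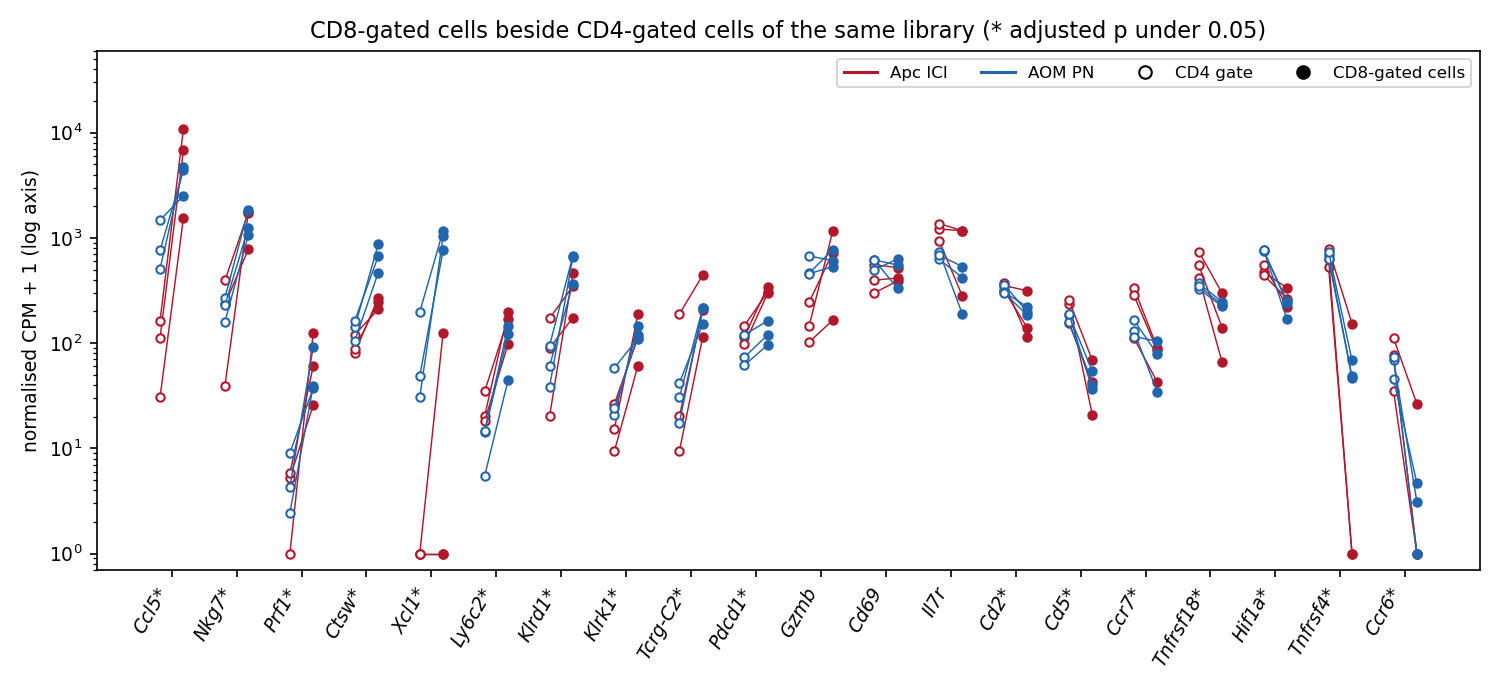
Normalised CPM + 1 (log axis) in CD8-gated (filled) and CD4-gated (open) cells for 20 genes, with lines joining the 2 sums of a library, coloured by tumour model. Nkg7, Prf1 and Ctsw lie higher and Cd5, Hif1a and Tnfrsf4 lower in the CD8-gated cells of all 6 libraries.

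The difference between the models was itself tested against that in CD4-gated cells. Of 6053 genes, 12 had a model effect that differed between the gates (0.198%), 3 of them in the higher direction (0.0496%) and 9 in the lower (0.149%). For Maf the difference between the effects was -3.34 ± 0.43 (SE, edgeR adjusted p = 0.0111). Its level in CPM of total UMIs was 545, 575, 321, 29.5, 77, 78 in CD8-gated cells and 334, 347, 508, 438, 472, 490.4 in CD4-gated cells in the order above.

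A comparison with NK-gated barcodes was possible in 4 libraries with at least 10 such cells, namely Apc ICI 1 and AOM PN 1, 2 and 3. Of 5790 genes tested by edgeR, 171 were higher in CD8-gated cells (2.95%) and 270 lower (4.66%). The NK label did not hold in AOM PN, because the mast cell protease Mcpt1 stood at 0, 2593, 303 and 10035 normalised CPM in the CD8-gated cells and 37.3, 75734, 42992 and 120332 in the NK-gated cells of these libraries. Single genes are therefore given here only for T cell identity. Bcl11b, the T cell commitment factor, stood at 301, 123, 128 and 100.3 normalised CPM in the CD8-gated cells and 18.7, 0, 0 and 0 in the NK-gated cells of these libraries (log2 difference 7.20 ± 0.77 SE, adjusted p = 0.0102). That call did not hold without AOM PN 1 or without AOM PN 2. Leaving out 1 library left 3 to 559 higher and 2 to 676 lower calls, the most without Apc ICI 1 and the fewest without AOM PN 1 or 2.

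Few variable segments of the T cell receptor were read. The chemistry captures transcript 3′ ends. The CD8-gated cells held 1001 UMIs over 51 of 176 listed segments. Of these UMIs 683, or 68.2%, fell on the single γ chain segment Trgv2, with 125 on β chain and 83 on α chain segments. Trgv2 stood at normalised CPM of 152, 183 and 351 against 224, 166 and 218 in the 2 models (log2 difference -0.08 ± 0.30 SE, adjusted p = 0.935), and the models overlapped. Constant genes of the receptor had log2 differences between the models of 0.13, adjusted p = 0.824 for Trac, 0.25, adjusted p = 0.706 for Trbc1 and -0.17, adjusted p = 0.682 for Trbc2. None of the 6 constant genes tested was called by edgeR, with 2 at an unadjusted p under 0.05 and 0 called by DESeq2. No αβ clonality was derived from these reads.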

How the data were processed

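Single-cell 3′ RNA libraries were made from dissociated colon tumours, 3 for each of 2 mouse models. The deposited files hold UMI counts of 31053 features per barcode. Per the submitters' processing notes the authors used Cell Ranger 6.1.2 and the mm10 genome, and the annotation is not given in the sources used here. Cells were gated on raw UMIs, and counts were summed per library. Sums of at least 10 cells entered edgeR 4.0.16 (TMM normalisation, low-count filter, quasi-likelihood F-test), with Benjamini-Hochberg adjusted p under 0.05 as a call. Comparisons between gates or between Cd8b1 classes had library as a block. Levels are CPM of effective library size, except where CPM of total UMIs is named. Shares were compared by exact two-sided permutation tests. Doublets were called within each library and were removed only as an alternative.

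The cells, gene lists and comparisons were chosen with earlier results of these data known. Named genes were chosen from the 12 largest called changes without overlap between the models in each direction, the 8 largest in each other comparison, list members that passed, 28 fixed genes and the markers. Il17a, Il1r1, Trgv2 and Cpa3 were chosen after their values were seen. In simulated counts for the model comparison, 34% of genes changed 2-fold and 100% of genes changed 4-fold were recovered among 5219 genes, and 1.47% of calls were false. For the comparison with CD4-gated cells, 93% and 100% were recovered among 5046 genes, with 3.02% false calls. In both simulations the changed genes lay above the median level, and the spread of each gene followed the trend over level. Recovery of genes at a low level, or with a wider spread of their own, was not tested. Alternatives were other normalisation, DESeq2 1.42.0, no filter, haemoglobin genes left out, thinning to 1000 UMIs, doublets removed, stricter gates, the replicate number as a block, and leaving out each library. Replicates differed by more than sampling noise (chi-square per degree of freedom 2.40 to 10.3). Coordinates of promoters are from RefSeq on GRCm38.p6, and all 4 genes matched by symbol. Results for some items are not reported here.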

Additional observations from a re-analysis of the deposited data

Results flagged for a closer look

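The effect of the model (AOM PN minus Apc ICI) differed between CD8-gated and CD4-gated cells for 12 of 6053 genes (0.198%; edgeR quasi-likelihood interaction term, adjusted p under 0.05; 682 genes had an unadjusted p under 0.05). Each value below is the effect in CD8-gated cells minus that in CD4-gated cells on the log2 scale, and levels are CPM of total UMIs in the order Apc ICI 1, 2 and 3, AOM PN 1, 2 and 3. The difference was 3.48 (adjusted p = 0.0111) for Plac8, a gene of differentiated immune cells, at 75.9, 56.7, 120.4, 649, 654 and 474 in CD8-gated and 295, 145, 129, 142, 115 and 149 in CD4-gated cells. Plac8 was high in the CD8-gated cells of all AOM PN libraries and at a lower level in all other sums. The difference was 2.84 (adjusted p = 0.019) for Stmn1, a regulator of microtubules in dividing cells, and 4.65 (adjusted p = 0.0252) for Trat1, an adaptor of the T cell receptor. Trat1 stood at 0, 16.2, 0, 57.7, 66 and 39 in CD8-gated and 159, 188, 25.8, 50.9, 79.4 and 60.3 in CD4-gated cells. Its Apc ICI levels in CD8-gated cells were thus at or near 0. Over 8 alternatives its difference ran from 3.41 to 9.26, and 4 passed.

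The other 9 differences were below 0. Maf gave -3.34 (adjusted p = 0.0111) and Ramp1 gave -3.69 (adjusted p = 0.0111), both low in the AOM PN CD8-gated sums. Ccl5 gave -3.73 (adjusted p = 0.0217), at 1475, 6474, 10476, 4043, 2269 and 4264 in CD8-gated and 27.2, 108, 164, 723, 1366 and 470.3 in CD4-gated cells, so that CD4-gated cells of AOM PN held more Ccl5 than those of Apc ICI while the CD8-gated sums overlapped. Igfbp7 gave -6.17 (adjusted p = 0.0111) and Bcl2a1a, whose copies are near-identical and may share reads, gave -5.08 (adjusted p = 0.0111). Klf4 gave -2.17 (adjusted p = 0.0154), Gem -2.56 (adjusted p = 0.0171), Serpinb6a -2.21 (adjusted p = 0.031) and Batf, a transcription factor of activated T cells, -1.89 (adjusted p = 0.0491).

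Leaving out 1 library left 0 to 64 such genes, with 0 without AOM PN 1, 0 without AOM PN 3, 1 without Apc ICI 1 and 64 without Apc ICI 3. With Cd8a required 4 genes were called. Maf passed in 6 of 9 alternatives, Plac8 and Ramp1 in 5 of 9, and Batf in 3 of 9.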

How the results depend on the processing

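The higher share of CD8-gated cells among kept barcodes in AOM PN kept its direction under every alternative run, and its edgeR log2 ratio was 2.08. Leaving out 1 library gave differences of 0.592 to 1.30 percentage points of kept barcodes and 2.79 to 9.41 points of CD3-positive barcodes. Counts of called genes depended on the processing. Between the models, 61 higher and 80 lower calls became 331 and 216 without the low-count filter, 2 and 4 after thinning to 1000 UMIs, 29 and 48 without called doublets, 6 and 9 with Cd8b1 required, and 17 and 13 with Cd8a required. DESeq2 called 96 and 110. Leaving out 1 library gave 4 to 41 higher and 3 to 44 lower.

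Same-numbered libraries of the 2 models did not deviate together (correlations -0.144, -0.004 and -0.094), so the numbers do not pair them. With the replicate number as a block, 22 genes were higher and 9 lower.

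Against CD4-gated cells, 56 and 78 calls became 241 and 303 without the filter, 13 and 28 after thinning, 209 and 261 with Cd8a required, and 14 to 197 and 20 to 233 without 1 library. Against NK-gated cells, 171 and 270 became 702 and 828 without the filter, 33 and 51 after thinning, and 3 to 559 and 2 to 676 without 1 library. The 12 genes whose model effect differed became 221 without the filter, 2 after thinning, 4 with Cd8a required, and 0 to 64 without 1 library. For the Cd8b1 split, 202 became 498 without the filter, 39 after thinning and 173 to 226 without 1 library. Thinning leaves fewer UMIs and each left-out library fewer samples; other causes were not tested. Over 71 named genes and 1040 refits, none that was called turned its direction, 274 refits lost a call and 7 gained one.

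The Apc ICI sums hold 55 cells in all. In simulated counts of the model comparison, genes above the median level whose fold was 2 were recovered in 34% of cases.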
